A study of Mus musculus with 4 samples.

Results

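The genes described here are the heat shock proteins and DNAJ chaperones of the mouse. A gene belongs to the set by its symbol, and the set is the protein-coding genes of GENCODE M21 whose symbol starts with Dnaja, Dnajb, Dnajc, Hspa, Hspb, Hspd, Hspe, Hsph or Hsp90, 74 of 21938 protein-coding genes in all. The prefix also takes in 3 genes that are no chaperones of their families, namely *Hspbp1* (an HSP70 nucleotide exchange factor), *Hspbap1* (a protein that associates with small heat shock proteins) and *Hspb11* (a subunit of the intraflagellar transport machinery of cilia).

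ATAC-seq, in which Tn5 transposase cuts and tags DNA that nucleosomes leave free, was performed on whole dissociated hearts of mouse embryos at embryonic day (E) 9.5. The hearts were wild type (WT) or *Smyd1-KO*, that is, homozygous for a null allele of *Smyd1*, the gene of a histone methyltransferase found in cardiac and skeletal muscle. Each genotype had 2 libraries of 4 pooled hearts and 40000 viable cells each, with a planned depth of 100000000 reads a library. Neither genotype was treated, embryos of both sexes could be included, and the *Smyd1*+/- and WT mice came from the Jackson Laboratory.

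The deposited lists hold the peaks that differed at least 2-fold between the genotypes, 25745 with more signal in *Smyd1-KO* hearts (gained peaks) and 106 with more signal in WT hearts (WT-enriched peaks). Every gained peak is 149 bp wide and carries one score for both libraries of the genotype together. Replicate errors are therefore unknown throughout, and a test over samples could not be made. Whether a difference in depth or scaling between the libraries of the genotypes adds to the excess of gained peaks was not tested. A gene without a gained peak may be equally open, or equally closed, in both genotypes, since unchanged peaks were not analysed here. A whole heart holds several cell types, so a change in the share of cells and a change within cells cannot be told apart. Of 9 cardiomyocyte markers 7 had a gained peak within 3 kb of a transcription start site (TSS), where coding genes of like GC had 48.5%. The counts were 1 of 4 for endothelial markers (49.7%) and 1 of 4 for erythroid markers (35.6%). These peaks show a difference between the genotypes and not how open the genes were in WT hearts.

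Molecular chaperones bind unfolded proteins and let them fold without clumping. HSP70 proteins (the Hspa genes) hold and release their clients in a cycle driven by ATP, in which J-domain proteins (the Dnaj genes) deliver the client and trigger ATP hydrolysis, and nucleotide exchange factors such as the HSP110 protein HSPH1 reopen HSP70. HSP90 acts later on kinases, receptors and, together with the co-chaperone UNC45B, on the folding of muscle myosin; small heat shock proteins (the Hspb genes) hold unfolded proteins and are abundant in heart muscle; HSPD1 and HSPE1 form the folding chamber of mitochondria. On heat shock, the factor HSF1 binds heat shock elements, arrays of inverted GAA units, in many of these genes, and unfolded protein in the endoplasmic reticulum (ER) acts through ER stress response elements upstream of the ER chaperones.

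The start regions of 4 well-known genes of the heat shock response are shown first, as examples of heat shock elements. They hold 5 of the 15 such sites that are compared with gained peaks further on, and most of these 5 lie closer to a peak than most of the other sites do. Each line gives 250 bases that end just before the start of the gene (RefSeq, GRCm38.p6, the same sequence as mm10), read 5′ to 3′ in the direction of transcription. Capitals mark GAANNTTC, a heat shock element of 2 units, searched on both strands. *Hspa1a* and *Hspa1b* encode the inducible HSP70, *Hspb1* encodes HSP27 and *Dnaja1* a cytosolic J-domain partner of HSP70.
*Hspa1a*, chr17:34972157-34972406, minus strand: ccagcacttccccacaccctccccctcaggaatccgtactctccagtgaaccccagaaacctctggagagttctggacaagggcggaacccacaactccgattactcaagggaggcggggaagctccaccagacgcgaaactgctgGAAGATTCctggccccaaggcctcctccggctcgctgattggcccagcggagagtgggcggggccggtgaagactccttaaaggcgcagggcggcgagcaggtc
*Hspa1b*, chr17:34959239-34959488, minus strand: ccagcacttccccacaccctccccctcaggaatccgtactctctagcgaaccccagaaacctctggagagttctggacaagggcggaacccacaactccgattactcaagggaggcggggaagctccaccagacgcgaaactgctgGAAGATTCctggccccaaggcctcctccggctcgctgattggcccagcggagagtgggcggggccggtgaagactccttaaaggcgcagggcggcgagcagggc
*Hspb1*, chr5:135887669-135887918, plus strand: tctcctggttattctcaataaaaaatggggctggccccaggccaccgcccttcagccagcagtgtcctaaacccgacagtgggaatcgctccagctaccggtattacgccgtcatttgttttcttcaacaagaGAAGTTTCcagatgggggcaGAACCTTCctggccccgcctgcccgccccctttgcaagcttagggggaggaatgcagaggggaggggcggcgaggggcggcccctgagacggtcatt
*Dnaja1*, chr4:40722218-40722467, plus strand: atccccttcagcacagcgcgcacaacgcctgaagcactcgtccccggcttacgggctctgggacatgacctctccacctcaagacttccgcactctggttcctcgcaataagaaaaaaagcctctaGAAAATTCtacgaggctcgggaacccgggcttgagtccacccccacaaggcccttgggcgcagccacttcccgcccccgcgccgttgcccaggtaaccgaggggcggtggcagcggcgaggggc
The *Hspa1a* and *Hspa1b* stretches are identical at 247 of 250 bases (98.8%) and hold the element at the same place, 104 bases before the start.

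The next sequences are whole gained peaks of 4 chaperone genes, each the strongest gained peak of its gene and each free of annotated untranslated sequence. *Hsp90b1* (GRP94), *Dnajc3* (p58IPK) and *Hspa5* (BiP) act in the ER, and *Dnajb1* (HSP40) is the heat-inducible J-domain protein of the cytosol and nucleus. Sequences are from GRCm38 and are written in the direction of the gene. In the first 2 lines, capitals mark the ER stress response element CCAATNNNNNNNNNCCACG, in which 9 bases of any kind separate the CCAAT and CCACG parts.
*Hsp90b1*, chr10:86705555-86705703, minus strand: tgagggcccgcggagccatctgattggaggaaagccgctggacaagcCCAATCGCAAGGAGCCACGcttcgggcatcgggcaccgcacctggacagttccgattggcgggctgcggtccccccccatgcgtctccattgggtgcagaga
*Dnajc3*, chr14:118937738-118937886, plus strand: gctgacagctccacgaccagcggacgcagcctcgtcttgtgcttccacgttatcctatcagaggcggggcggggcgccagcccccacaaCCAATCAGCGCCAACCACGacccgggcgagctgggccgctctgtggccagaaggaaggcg
In the next 2 lines, capitals mark CCAAT on either strand, the site of the factor NF-Y, which was found 3 times in the *Hspa5* peak and 1 time in the *Dnajb1* peak.
*Hspa5*, chr2:34771820-34771968, plus strand: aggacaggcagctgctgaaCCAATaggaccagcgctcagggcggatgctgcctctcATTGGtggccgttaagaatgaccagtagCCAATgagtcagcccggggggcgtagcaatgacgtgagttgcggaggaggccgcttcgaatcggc
*Dnajb1*, chr8:83608008-83608156, plus strand: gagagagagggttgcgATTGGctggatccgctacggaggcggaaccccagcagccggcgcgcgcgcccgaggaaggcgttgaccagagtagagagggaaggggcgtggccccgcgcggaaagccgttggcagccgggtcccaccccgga

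Most of the genes had a gained peak near a start. Of the 74 genes 64 had a gained peak at most 3 kb from a TSS, or 86.5% (95% Clopper-Pearson interval 76.5 to 93.3%, which covers counting error only). The background was 51.2% of all coding genes (11236 of 21938). No member had a WT-enriched peak within 3 kb (0 of 74, interval 0 to 4.86%), against a background of 0.0228% (5 genes), and the WT-enriched peak nearest to any member lay 284438 bp away. A gained peak covered a TSS of 34 members (45.9%, interval 34.3 to 57.9%), beside 27.8% of all coding genes, and 11 members (14.9%) had 2 or more gained peaks within 3 kb, close to the background of 11.8%. The median distance from a member's TSS to the nearest gained peak was 7 bp, against 1510 bp over the 21530 coding genes with a gained peak within 1000 kb.

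GC content was higher at the median member than at the median coding gene, and it moved with the gain of peaks. The 1001 bp around the 5′ end of the gene had a median GC of 58.4% in the members and 54.8% in all coding genes, and the share of coding genes with a gained peak climbed from 10.1% below 45% GC to 81.8% at 65% GC and over. Among coding genes within 2 percentage points of each member's GC, 63.3% had a gained peak on average, so the member share was 23.2 percentage points above the GC-matched share. From 60% GC up all 32 members had a gained peak, 20 of 20 between 60 and 65% (coding genes 77.6%) and 12 of 12 above that. Between 45 and 50% GC 8 of 9 members had one, where the share over coding genes was 30.5%, and below 45% none of 3 did. With the 5′ end of the gene as its only TSS, where the GC was measured, 5 of 9 members between 45 and 50% GC had a gained peak (coding genes 23.5%), since those of *Dnajc18*, *Dnajc25* and *Hsp90aa1* lay at other starts of these genes. With genes matched on CpG ratio instead of GC the difference was 19.7 points. It was 18.4 points when matched on GC and CpG ratio, and 21.6 points when matched on GC and number of TSSs. These shares are a description of gene lists, with no test, and the part of further gene properties in the difference was not tested.

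**Figure D1:**
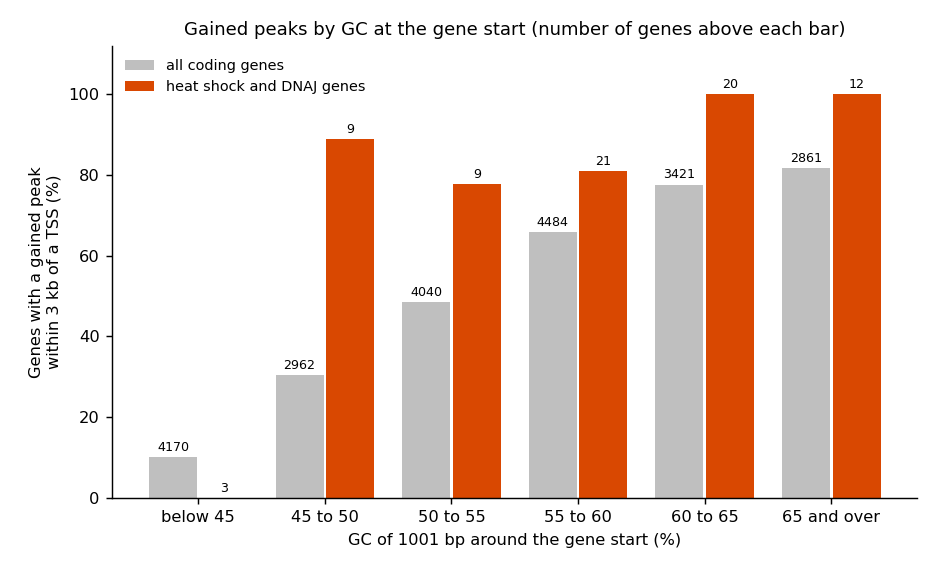
Share of genes with a gained peak within 3 kb of a TSS (y axis, %) by GC of the 1001 bp around the gene start (x axis, %), for all coding genes (grey) and the 74 heat shock and DNAJ genes (orange), with the number of genes above each bar. The members stand above all coding genes in every class from 45% GC up, and none of the 3 members below 45% GC had a gained peak.

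The density of CpG and divergent neighbours divided the genes in a like way. A CpG-rich start, with an observed to expected CpG ratio of at least 0.6 and at least 50% GC, was found in 46 members (62.2%, coding genes 44.4%), and 43 of these 46 had a gained peak (93.5%, against 79.1% of the coding genes with such a start). Of the other 28 members 21 had one (75%), where the share over coding genes was 29%. A TSS of another coding gene on the opposite strand within 1 kb upstream was present at 21 members (28.4%, coding genes 11%). Of these 21 members 20 had a gained peak (95.2%, coding genes 83.7%), as had 44 of the 53 without such a neighbour (83%, coding genes 47.2%).

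The 64 genes with a gained peak carried it close to the start. The strongest gained peak lay within 100 bp of a TSS in 50 of 64 members (78.1%, against 73.7% of the coding genes with a peak) and between 1001 and 3000 bp in 5 (7.81%, against 7.98%). Its centre was upstream of the TSS in 46 members and at or downstream of it in 18. The strongest peak had a median score of 532.5 in the members (quartiles 354.5 and 879.5) and 460.5 in all coding genes with a peak (quartiles 292 and 693), while the median over all gained peaks was 180.5. The score is the authors' value for the peak in the pooled *Smyd1-KO* libraries, and the strongest peak is the one with the highest score. Its scaling is not given in the sources used here, and how it relates to the fold difference from WT is not known. In all, the members had 76 links to 74 different peaks.

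**Figure D2:**
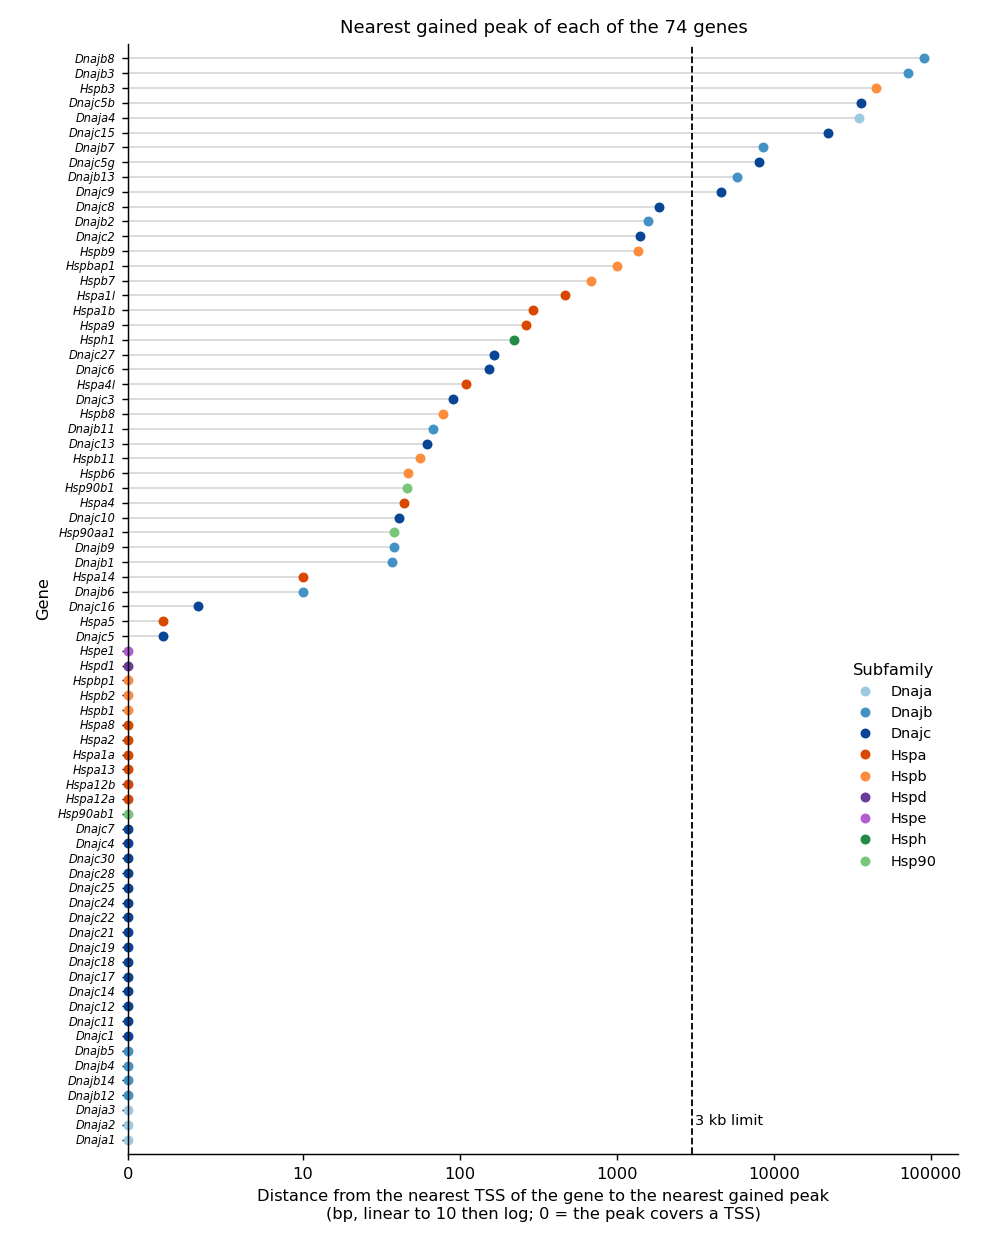
Distance from a TSS of each of the 74 genes to the nearest gained peak (x axis, bp, linear to 10 and logarithmic above), coloured by subfamily, with a dashed line at 3 kb. In 34 genes the peak covers a TSS, no gene lies between 1868 and 4602 bp, and 10 genes lie beyond the limit.

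The count of genes with a gained peak was taken for each subfamily. All 13 HSP70 genes (Hspa) had one, with a GC-matched share of 68.8%, as had all 3 HSP90 genes (62.4%), *Hspd1* and *Hspe1* (81.6% and 83.5%) and *Hsph1* (77.6%). Of the Hspb genes 9 of 10 had one, or 90% (GC-matched 60.5%). Of the DNAJ genes, 24 of 28 in Dnajc did (85.7%, GC-matched 58.4%), 9 of 13 in Dnajb (69.2%, GC-matched 65.4%) and 3 of 4 in Dnaja (75%, GC-matched 67.3%). In Dnajb the share was 3.79 points above the matched share, and in Dnajc 27.3 points. The Dnajb share was below its matched share within 1 kb (61.5 against 62.7%) and when a peak counted only for the nearest coding gene (53.8 against 60%), and under the latter 60% of the Hspb genes had a gained peak, against 55.4% of matched genes. Taken as classes, 28 of 29 Hsp genes (96.6%, interval 82.2 to 99.9%) and 36 of 45 Dnaj genes (80%, interval 65.4 to 90.4%) had a gained peak, and these intervals overlap.

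**Figure D3:**
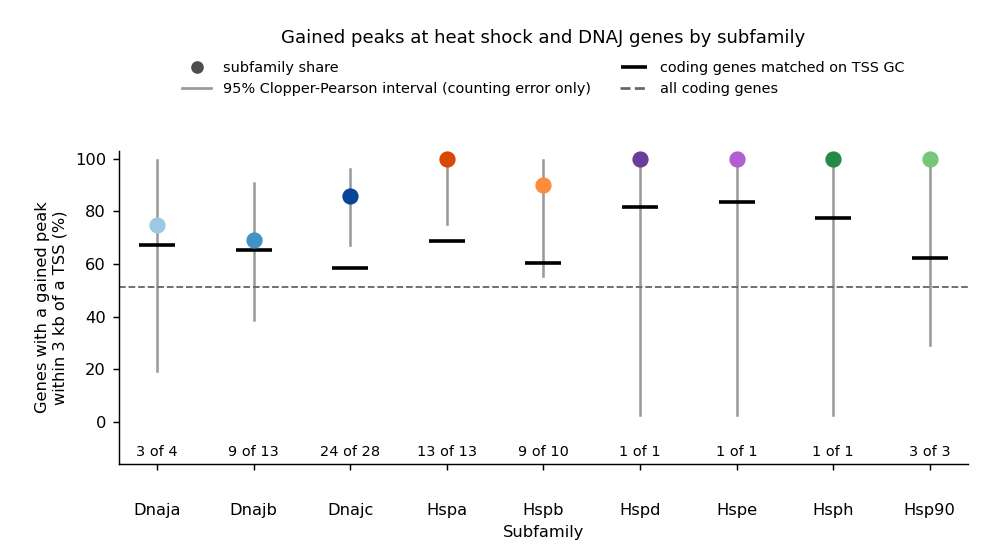
Share of each subfamily with a gained peak within 3 kb of a TSS (y axis, %; filled circles, with the count under each), 95% Clopper-Pearson intervals for counting error (grey lines), the share of GC-matched coding genes (black bars) and of all coding genes (dashed line, 51.2%). With the 3 kb limit and all links counted, the subfamily share is above the matched share in each of the 9 groups, by the least in Dnajb, where it is below under 2 alternatives, and the intervals of the groups of 1 to 4 genes are wide.

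The HSP70 genes held the strongest peak of the whole set. *Hspa2*, the HSP70 of male germ cells, had a peak of score 1483.5 at chr12:76404112-76404260 that covered its TSS and part of its 5′ UTR, higher than 99.7% of all gained peaks. *Hspa8*, the HSP70 that cells make at all times, followed with 1202.5 (chr9:40800940-40801088, over the TSS), and *Hspa14*, which works with a J-domain protein at the ribosome, with 1168.5 (chr2:3512824-3512972, 10 bp upstream). *Hspa5* had a score of 991, 2 bp upstream of a TSS. *Hspa4* and *Hspa4l*, which like *Hsph1* belong to the HSP110 class of exchange factors, had scores of 741.5 and 668, and *Hspa13*, an HSP70-like protein of microsomes, had 586. The distant relative *Hspa12a* (543) and the mitochondrial *Hspa9* (516) lay lower, and the lowest scores were those of *Hspa12b* (353) and of the *Hspa1* cluster (251.5 and 376.5).

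That cluster, on chromosome 17, holds the stress-inducible *Hspa1a* and *Hspa1b* and the germ cell gene *Hspa1l*, which starts head to head with *Hspa1a*. *Hspa1a* and *Hspa1l* shared a peak of score 251.5 at chr17:34972084-34972232, which covered the TSS of *Hspa1a* and lay 471 bp upstream of *Hspa1l*. *Hspa1b* had a peak of score 376.5 at chr17:34959530-34959678, 292 bp upstream of its TSS. Although the start regions printed for these 2 genes are nearly identical, no gained peak covered the TSS of *Hspa1b*. In the shared peak 44.7% of the 36-base words occur more than once in the genome, and in the *Hspa1b* peak 0% do. Reads from such near-identical copies can be placed at either gene, the authors' handling of them is not given in the sources used here, and the assignment of the shared peak to *Hspa1a* is therefore uncertain.

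**Figure D4:**
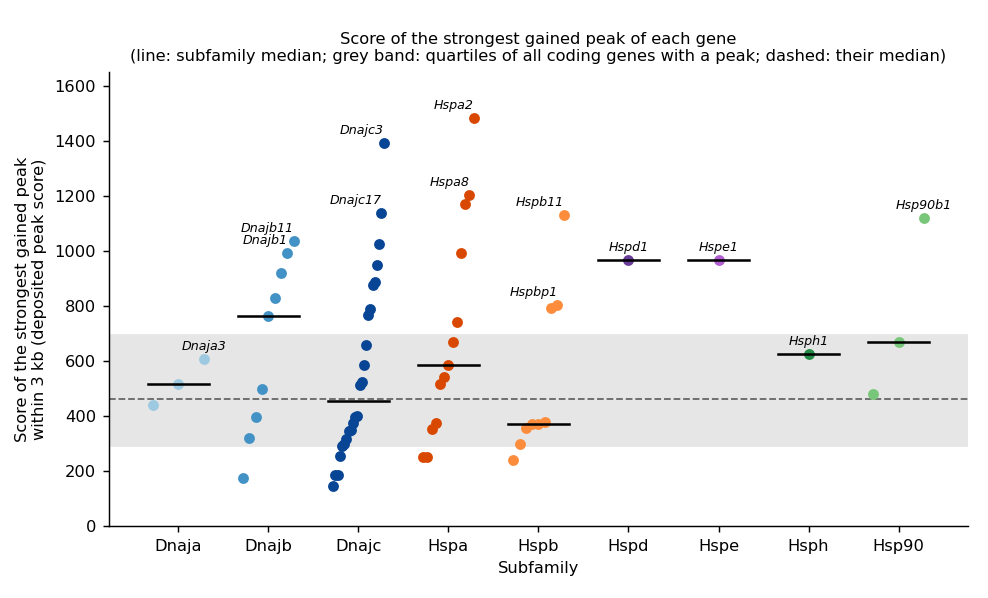
Score of the strongest gained peak within 3 kb of each of the 64 genes with one (y axis, deposited peak score), by subfamily (x axis), with the subfamily median (black line). The grey band spans the quartiles (292 to 693) and the dashed line the median (460.5) of all coding genes with a peak; the Dnajb median of 761.5 is above the band, and the Hspb median of 370.5 is within it and below the dashed line.

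Of the HSP90 and chaperonin genes, *Hsp90b1*, *Hspd1* and *Hspe1* had scores above the quartiles of all coding genes with a peak (292 to 693), and *Hsp90aa1* and *Hsp90ab1* lay within them. *Hsp90b1*, the HSP90 of the ER, had a score of 1119, 46 bp upstream of its TSS. *Hsp90aa1*, the inducible cytosolic form, had 669.5 (chr12:110696433-110696581), 38 bp from a TSS inside the gene and in an intron of its longer transcripts, so it had no gained peak when only the 5′ end of the gene was used. *Hsp90ab1*, the constitutive form, had a peak of 479.5 over its TSS and a second of 410.5 centred 578 bp upstream. *Hspd1* and *Hspe1*, which encode HSP60 and HSP10 and start head to head, shared one peak of score 965.5 at chr1:55088122-55088270 that covered a TSS of both. *Hsph1* had a score of 626 at chr5:149636599-149636747, 223 bp upstream.

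The small heat shock proteins had weaker peaks. *Hspb1* had a peak of score 298.5 over its TSS (chr5:135887842-135887990) and *Hspb8*, which forms a complex with BAG3, a peak of 355 at 78 bp upstream. *Hspb7*, a heart muscle protein, had 377.5 at chr4:141421460-141421608, 681 bp downstream of a TSS and in its 5′ UTR, and *Hspb6* (HSP20) had 793.5, in a peak closer to the start of *Proser3*. *Hspb2* and *Cryab*, the gene of αB-crystallin, are divergent neighbours, and of the 2 gained peaks between them the weaker (328.5) covered the *Hspb2* TSS and the stronger (370.5) the *Cryab* TSS. *Hspb9*, a testis gene, had 239 in a peak 1363 bp away that covered a TSS of *Kat2a*. *Hspb3*, a muscle gene, had no gained peak nearer than 45045 bp. Of the 3 genes that only share the prefix, *Hspb11* had 1130.5, *Hspbp1* 804.5 and *Hspbap1* 370.5, so the 2 highest Hspb scores came from genes that encode no small heat shock protein.

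Among the Dnaja genes, *Dnaja3*, the mitochondrial J-domain protein TID1, had the highest score with 607.5, in a peak 29 bp upstream that covered a TSS of *Vasn*, and it was the only member with 3 gained peaks within 3 kb (607.5, 457.5 and 422). *Dnaja1* had 516.5 and *Dnaja2* 440, each over a TSS, and *Dnaja4* had none. In Dnajb, *Dnajb11* (ERdj3, a partner of BiP) had 1037 in a peak that covered a TSS of *Tbccd1*. *Dnajb1* had 992, in a peak 37 bp from its TSS and also 37 bp from a TSS of its divergent neighbour *Tecr*. *Dnajb5* had 918.5, followed by the ER protein *Dnajb9* (ERdj4) with 829 and *Dnajb4* with 761.5. Scores of 500 were found at *Dnajb12* and of 320 at *Dnajb14*, both anchored in the ER membrane. *Dnajb6*, which protects the muscle Z-disc and is mutated in a limb-girdle muscular dystrophy, had 397 (chr5:29735782-29735930), and *Dnajb2*, which is known from neurons, had the lowest with 175.

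In Dnajc, the 24 scores spread from 147.5 to 1393 around a median of 456.2. *Dnajc3*, which works with BiP in the ER, led with 1393 at 90 bp upstream, followed by *Dnajc17* with 1135.5 (over a TSS, 89 bp from a TSS of *Zfyve19*) and *Dnajc16* with 1024. Scores between 659.5 and 949.5 were seen at *Dnajc7*, which binds both HSP70 and HSP90, *Dnajc14*, *Dnajc13* (endosomes), *Dnajc4*, *Dnajc1* (ER membrane) and *Dnajc5*, the cysteine string protein of synaptic vesicles. Scores between 345.5 and 584 were seen at *Dnajc25*, *Dnajc21*, *Dnajc18*, *Dnajc30*, *Dnajc11*, *Dnajc27*, *Dnajc19* and *Dnajc10*. *Dnajc24*, *Dnajc8*, *Dnajc6* (the clathrin uncoating factor auxilin), *Dnajc12*, *Dnajc2*, *Dnajc28* and *Dnajc22* lay between 147.5 and 317.5. *Dnajc19*, a subunit of the mitochondrial import motor that is mutated in a dilated cardiomyopathy with ataxia, had a score of 349.5 over its TSS, and 27.2% of the 36-base words of that peak are repeated in the genome.

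Of the 74 genes 10 had no gained peak within 3 kb, and most of them were far from the limit. *Dnajc9*, a co-chaperone of histones H3 and H4, was the closest outside at 4602 bp, from a peak that covered a TSS of *Mrps16*, and *Dnajc8* was the farthest inside at 1868 bp, with a peak over a TSS of *Atpif1*. *Dnajb13* (5794 bp), *Dnajc5g* (8074 bp) and *Dnajb7* (8495 bp) came next, then *Dnajc15* (22299 bp), *Dnaja4* (34913 bp), *Dnajc5b* (35815 bp), *Hspb3* (45045 bp), *Dnajb3* (71717 bp) and *Dnajb8* (89958 bp). Inside the limit, *Dnajb2* (1572 bp), *Dnajc2* (1407 bp), *Hspb9* (1363 bp) and *Hspbap1* (1002 bp) followed *Dnajc8*, and the strongest peaks of 10 of the 64 genes lay nearer to another coding gene. Of the 10 genes without a peak 6 belong to a list of 9 members best known from testis or sperm. In that list 3 of 9 had a gained peak, *Hspa2*, *Hspa1l* and *Hspb9*, where GC-matched coding genes had 47%. The starts of the 10 genes ranged from 43.9% GC (*Dnajc5b*, with a GC-matched share of 18.2%) to 59.9% GC (*Dnajb3*, 73.4%).

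Grouped by the place where they act, all 10 members of the ER list had a gained peak (GC-matched 71.4%, median score 798.8), and in 4 of them it covered a TSS. Of the mitochondrial list 7 of 8 had one (GC-matched 68.6%, median score 516), *Dnajc15* being the exception, and of the small heat shock proteins of muscle 5 of 6 (GC-matched 56%, median score 370.5). All 11 members of a list of HSF1 targets on heat shock had a gained peak (GC-matched 72.8%), with a median score of 626 and a range from 251.5 at *Hspa1a* to 1202.5 at *Hspa8*. This list was chosen with earlier results of these data known. It leaves out *Dnaja4*, *Hspb3* and *Dnajc5g*, whose promoters hold a 2-unit heat shock element and which had no gained peak within 3 kb.

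Partners of these chaperones were listed too. Of 11 nucleotide exchange and release factors of HSP70, which include the member *Hspbp1*, 10 had a gained peak (GC-matched 69%), among them *Bag3* with 641.5, a factor required in heart muscle, and the ER factor *Hyou1* with 777; *Sil1* had none. Of 14 HSP90 co-chaperones 12 had one (GC-matched 63%), with scores of 1316 at *Stip1*, which links HSP70 to HSP90, 1076 at the ubiquitin ligase *Stub1* and 395 at the myosin chaperone *Unc45b*; *Cdc37*, which brings kinases to HSP90, and *Sgta* had none. Of 14 listed genes of the cytosolic chaperonin TRiC and of prefoldin, 13 were matched to a coding gene by symbol. Of these 13 genes 11 had a gained peak (GC-matched 60.5%), with *Pfdn1* and *Pfdn5* the exceptions. Of the heat shock factors, *Hsf1* (838) and *Hsf2* (662) had one, *Hsf4* and *Hsf5* had none, and the GC-matched share was 79.6%. Of the 2 α-crystallin genes, which encode small heat shock proteins, *Cryab* had one (370.5) and *Cryaa* had none nearer than 6115 bp (GC-matched 60.7%).

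Part of the gained peaks lay near the start of another gene too. The strongest peak of 30 of the 64 members (46.9%, interval 34.3 to 59.8%) also lay within 3 kb of another coding gene, as did 25.8% of those of all coding genes with a peak. Among peaks shared with a gene that starts within 1 kb upstream on the other strand, the 5 highest were those of *Hspa14* (with *Cdnf*), *Dnajc17* (with *Zfyve19*), *Hspb11* (with *Lrrc42*), *Hsp90b1* (with *Ttc41*) and *Dnajb11* (with *Tbccd1*), all between 1037 and 1168.5. These peaks cannot be assigned to either gene of a pair from the peak lists. Each peak was then counted only for the coding gene whose TSS was nearest, or for both genes where the distances were equal, as at *Hspd1* and *Hspe1*. In that count 56 of the 74 members kept one (75.7%), beside 46.9% of all coding genes and 58% of GC-matched genes.

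Motif letters were then compared with the peaks. The 2-unit heat shock element GAANNTTC was found in 4 of the 74 member peaks, those of *Hspa8*, *Dnajb6*, *Hspb2* and *Hspb9*, and in 1.76% of the 12520 gained peaks within 3 kb of a coding TSS. The 3-unit element GAANNTTCNNGAA, each match of which also holds the shorter one, was found in 2 member peaks (*Hspa8* and *Dnajb6*) and in 0.0639% of all those peaks. The ER stress response element was found in 2 (*Hsp90b1* and *Dnajc3*), beside 0.0399%. CCAAT was found in 18 (24.2% of all those peaks) and the GC box GGGCGG in 35 (50.4%).

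Promoter windows of 300 bases from RefSeq, 250 before and 50 after the start, were found for 60 of the 74 members. GAANNTTC was present in 14 of these 60, and in 8.44% of 17492 coding genes. The 3-unit element was present at 4 members, *Hspd1*, *Hspe1*, *Hsph1* and *Dnajb6*, and in 0.595% of the coding genes. The ER stress response element was present at 3, *Hspa5*, *Hsp90b1* and *Dnajc3*, and in 0.166%. CCAAT was present at 25 (42.3% of coding genes) and GGGCGG at 44 (49.2%). A match is a run of letters and was not tested as a bound site.

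Heat shock elements of the promoters were then set against the gained peaks. The 14 promoters held 15 different 2-unit sites, of which 1 lay inside a gained peak and 6 lay outside but within 100 bp of one, together 7 of 15, and the other 8 lay farther away. The matches found in the gained peaks of *Hspa8*, *Hspb2* and *Hspb9* are not among these promoter sites. Over the promoters of all coding genes 5.7% of 1509 sites of 2 units lay inside a gained peak and 16.9% inside or within 100 bp. Those sites were taken whether or not the gene had a gained peak, which fewer coding genes than members had (51.2 against 86.5%). In *Dnaja1* the site (chr4:40722344-40722351) ended 2 bp before the first base of the peak. In *Hspb1* the sites ended 33 and 13 bp before the peak, and in *Hspa1a* the site lay 21 bp from the upstream edge of its peak. In *Hspa1b* the distance was 188 bp and the peak lay upstream of the site. Both sites of *Dnaja4*, and the 1 site each of *Hspb3* and *Dnajc5g*, were in promoters with no gained peak within 3 kb.

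The 3-unit elements found in the promoter windows are shown here, since they are the longest heat shock elements searched. They are given in the direction of the named gene (GRCm38, plus strand for *Hspe1* and *Dnajb6*, minus strand for *Hsph1*), and capitals mark the match on either strand.
*Hspe1*, chr1:55088059-55088076, plus strand: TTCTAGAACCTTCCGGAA
*Hsph1*, chr5:149636288-149636300, minus strand: TTCTGGAAAGTTC
*Dnajb6*, chr5:29735852-29735864, plus strand: GAATCTTCCGGAA
The *Dnajb6* element was inside its gained peak. The stretch at *Hspe1*, which lies upstream of the RefSeq starts of *Hspe1* and *Hspd1* but within *Hspd1* as GENCODE annotates it, holds 2 overlapping matches and ended 46 bp before the peak that these genes share, and the *Hsph1* element was 299 bp from the *Hsph1* peak.

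The ER stress response elements lay inside or next to gained peaks. The 3 promoters held 4 sites, of which those printed in the *Dnajc3* peak and in the *Hsp90b1* peak were inside. A second *Hsp90b1* site ended 4 bp from the edge of the same peak, and the *Hspa5* site lay 57 bp downstream of its peak and 65 bases before the RefSeq start. Over all coding genes 5 of 29 such sites (17.2%) were inside a gained peak, and 11 of 29 (37.9%) were inside or within 100 bp of one. Those sites were taken whether or not the gene had a gained peak, while all 3 members here had one. The *Hspa5* site is printed because it belongs to the best known gene of this response.
*Hspa5*, chr2:34772025-34772043, plus strand: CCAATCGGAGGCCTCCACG

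**Figure D5:**
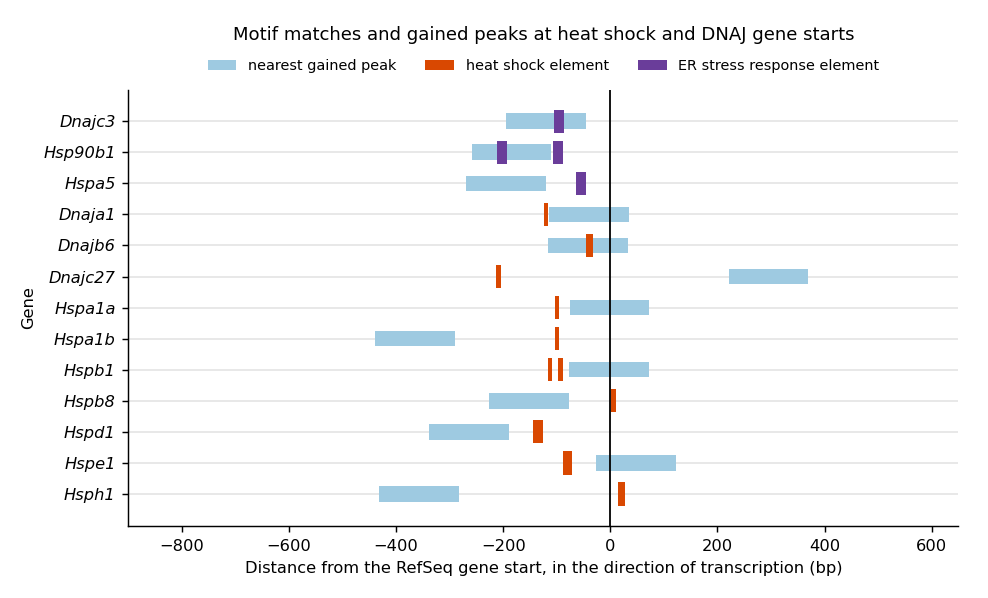
Positions of heat shock elements (orange) and ER stress response elements (purple) and of the nearest gained peak (blue bars, 149 bp) relative to the RefSeq start of the gene (x axis, bp, in the direction of transcription), for the members (y axis) with such a match and a gained peak within 900 bp of the start. The heat shock element of *Dnajb6* is the only one of these drawn inside a peak, while those of *Dnaja1*, *Hspa1a* and *Hspb1* stand 2 to 33 bp upstream of one.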

How the data were processed

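Open chromatin of E9.5 hearts was measured by ATAC-seq in 4 libraries, 2 of each genotype. Per the labels and the methods of the study, the authors aligned reads to mm10 with BWA-MEM, called peaks with HOMER 4.10.3 and kept those that differed 2-fold. The deposited signal of each peak, called the score here, is a value of the pooled libraries whose scaling is not given in the sources used here, so scores were not compared between the 2 lists, and the depth of each library is unknown from them. Treatment of duplicates, multiply placed reads and the Tn5 offset is not given there either, and each could change which peaks are listed.

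The family prefixes that define the members, and the gene lists, were chosen with earlier results of these data known, and no measured value decided which gene belongs. TSSs were those of all GENCODE M21 transcripts of a gene, and distance was taken from the nearer peak edge (0 where the peak covers the TSS). For each member, the GC-matched share is that of all other coding genes within 2 percentage points of its GC (500 bp to either side of the gene start), averaged over members. Words of 36 bases were counted on the assembled chromosomes. Motifs were searched as fixed letters on both strands. Named were the members without a gained peak, the 3 highest scores of each subfamily, small families in full, the *Hspa1* cluster and the members nearest the 3 kb limit; the remaining members were added after their values were seen, to account for each. Scripts (Python 3.11.15, pandas 2.3.3, SciPy 1.17.1) recovered planted distances and shares in simulated data. Intervals are 95% Clopper-Pearson.

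One of the partner gene lists is not reported here.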

Additional observations from a re-analysis of the deposited data

How the results depend on the processing

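The member share with a gained peak kept within the 95% interval of its main value, between 79.7 and 91.9%, under 8 of the 9 alternatives. It moved outside under the one that counts a peak only for the nearest coding gene (75.7%), where *Dnajb6*, *Dnajb11*, *Dnajc2*, *Dnajc8*, *Hspa1l*, *Hspb6*, *Hspb9* and *Hspbap1* lost their peak to a neighbour. Within 1 kb 5 members lost theirs, within 10 kb 4 were added (*Dnajb7*, *Dnajb13*, *Dnajc5g* and *Dnajc9*), and without peaks of repeated sequence *Hspa1a*, *Hspa1l* and *Dnajc19* lost theirs. With the 5′ end of the gene as the only TSS *Hsp90aa1*, *Dnajc6*, *Dnajc18*, *Dnajc22* and *Dnajc25* did. The difference from the GC-matched share was above 0 in all 14 alternatives, from 17.7 to 26.4 points. It was lowest with the nearest gene only, and 18.4 points when matched on GC and CpG together, an alternative chosen after seeing the data. The median score of the strongest peak stayed between 519.2 and 586.

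No paired analysis was possible because the deposited lists are pooled over the libraries of a genotype and no result comes from a test. No replicate was left out, for the same reason. The shares of Dnajb, Dnajc, Hspa and Hspb kept within their 95% intervals under all 9 alternatives. Genes that share a promoter share a peak and are not independent. Peaks that did not differ by 2-fold were not used here.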

Other observations

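More than 1 gained peak within 3 kb was found at 11 members. At *Dnajc16* a peak of score 1024 lay 4 bp from the TSS and another of 980.5 was centred 2688 bp upstream, nearest to *Casp9*. At *Dnajc13* a peak of 877.5 at the gene start stood beside one of 53.5, the lowest score of all member peaks, near a TSS inside the gene. At *Hspb8* the peak of 355 upstream was joined by one of 102.5 centred 2130 bp downstream of a TSS. At *Dnajc7* the second peak (459) was centred 2741 bp upstream, nearest to *Nkiras2*. At *Dnajb4* both peaks (761.5 and 296) were at starts of the gene's own transcripts. At *Dnajc12* one peak (256.5) covered a TSS and the other (237.5) lay 273 bp from one, in an intron.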
